A study of Mus musculus with 7 samples.

Results

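Pax5, Ebf1, Cd79a, Rag1, Rag2, Gata3, Tcf7, Bcl11b and Cd3e are 9 mouse genes that B and T lymphocytes use as lineage regulators or carry as markers. Their chromatin was described here in HPC7, a mouse hematopoietic progenitor line kept in stem cell factor, from bulk ATAC-seq, in which the Tn5 transposase cuts accessible DNA and the reads pile up into peaks. The 9 genes were taken by name out of 21938 protein-coding genes. For each, every peak that overlapped the gene body or the 30 kb on either side was collected from 7 peak lists, HPC7-1, HPC7-2 and HPC7-4 to HPC7-8. The 7 libraries share 1 condition in the labels, which name no treatment, genotype or time point, and came from separate culture batches of the same line. Merging peaks that shared at least 1 bp gave 144931 open-chromatin regions (OCRs) over the genome, of which 79 lay in the 9 windows.

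B and T lymphocytes descend from shared progenitors. Ebf1 and Pax5 are the transcription factors that establish and keep B-cell identity, while Tcf7, Gata3 and Bcl11b act as thymocytes commit to the T lineage. Rag1 and Rag2 form the recombinase that joins the gene segments of antigen receptors in both lineages, and Cd79a and Cd3e are signalling chains of the B-cell and the T-cell receptor. A promoter or enhancer that is accessible in a progenitor is not by that fact transcribed, and the peak lists hold no measure of transcription.

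The 7 lists held between 84593 and 132852 peaks, and HPC7-1 held the most. The lowest fold enrichment listed in a library, the ratio of reads at the summit to the background, lay between 1.68 and 2.44, so weaker accessibility was not detectable. Since the lowest and the median fold enrichment differed between libraries, peak intensity is given as a percentile. It is that of a peak's fold enrichment among all peaks of its own library. Marker promoters were read the same way. All 12 progenitor factors listed had a promoter peak in all 7 libraries, with Lyl1 at a percentile of 99.9 ± 0.0696 (SD, n = 7) and Kit at 96.0 ± 1.35. The counts were 0 of 4 hepatocyte and 2 of 5 fibroblast genes, and the share over all protein-coding genes was 55.9%. Of mature T-cell markers, Cd5 had a promoter peak in 7 libraries (75.4 ± 4.62), and Cd2, Cd4, Cd6 and Cd8a in 0. Of mature B-cell markers, Cd22 had one in 5 libraries, Cr2 in 1 and Ms4a1 in 0. The names given to single peaks carry the letters VD in 3 lists (HPC7-1, HPC7-2, HPC7-4) and EtOH in 4 (HPC7-5 to HPC7-8). What these letters stand for is not in the labels, and they serve below only to say which libraries stood together.

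A promoter was counted as open when a peak lay within 1 kb of any annotated start of the gene. By that rule, 3 of the 9 genes, Gata3, Rag2 and Rag1, had a promoter peak in all 7 libraries, Tcf7 had one in 3 libraries, and Pax5, Ebf1, Cd79a, Bcl11b and Cd3e had none in any library. Over all protein-coding genes, 55.9% had a promoter peak in all 7 libraries and 38.2% in none. The 3 open promoters were far apart in intensity. Gata3 stood at a mean percentile of 96.4 ± 1.05, Rag2 at 59.8 ± 9.02 and Rag1 at 48.3 ± 7.51, where the median over all promoters open in all 7 libraries was 93.4 and the lower quartile was 87.9. Gata3 exceeded Rag2 in 7 of 7 libraries, by 36.7 ± 8.35 percentile points, and Rag2 exceeded Rag1 in 7 of 7, by 11.5 ± 4.42 points. Both differences are descriptions with no test, since the pairs were taken as neighbours in the order of the same libraries' means.

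**Figure D1:**
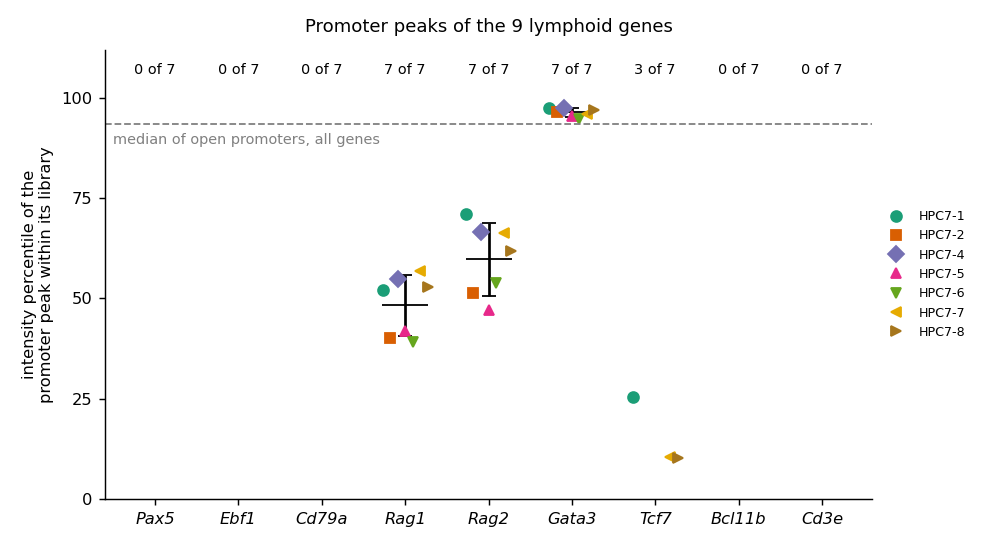
Intensity percentile of the strongest promoter peak of each gene (y axis) in each of the 7 libraries (points), with the mean and SD as bars where all 7 libraries had a peak and the number of libraries with a peak above. Gata3 lies between 94.8 and 97.6, Rag1 and Rag2 lie below 72 in every library, and 5 genes have no point.

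Base composition divides promoters into classes that differ in how often they are open. A promoter was called CpG-rich when the 1 kb around the principal start had at least 50% G and C and an observed over expected CpG ratio of at least 0.6. Among all genes, 83.9% of 10102 CpG-rich promoters were open in all 7 libraries and 13.4% had no peak in any, whereas 32.1% of the other 11836 promoters were open in all 7 and 59.3% had no peak. Of the 9 genes, 3 were CpG-rich. Gata3 (53.9% GC, ratio 0.640) was open, Tcf7 (71.8%, 0.864) had a peak in 3 libraries, and Bcl11b (56.5%, 0.790) had none. Among the 6 that were not CpG-rich, Rag1 (45.9%, 0.257) and Rag2 (42.2%, 0.180) were open in all 7 libraries, and Pax5, Ebf1, Cd79a and Cd3e were not open in any. The marker lists given above differed in composition. Of the 12 progenitor factors 6 were CpG-rich, and the other 6 were open in all 7 libraries too. Of the 4 hepatocyte and the 5 fibroblast genes 0 were CpG-rich.

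Among the B-lineage regulators, Pax5 and Ebf1 lay in long stretches with almost no peak. The gene body of Pax5 (chr4:44524757-44710487 in mm10, minus strand) and its flanks, 245.731 kb together, held 6 OCRs, and 1 of them was in all 7 libraries. That OCR, chr4:44564588-44564984 in intron 8, had percentiles of 55.9, 49.2, 46.8, 40.7, 31.2, 56.1 and 62.3 in HPC7-1, -2, -4, -5, -6, -7 and -8, a mean of 48.9 ± 10.6. It was highest in HPC7-8 and lowest in HPC7-6, the library with the shortest list. A second site, in intron 5 at chr4:44672444-44672983, had a peak in 4 libraries, with percentiles between 7.75 and 47.0. An intergenic one past the 3′ end, chr4:44511745-44511993, had a peak in HPC7-7 and HPC7-8 only, at 22.1 ± 3.01. The nearest OCR to the principal Pax5 start was 37504 bp away.

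Ebf1 (chr11:44617317-45008091, plus strand) had 4 OCRs in its window of 450.775 kb, 2 of them in all 7 libraries. An upstream OCR at chr11:44610824-44611307, whose summit lay 6281 bp before the principal start and inside an exon of the gene model Gm37695, had percentiles of 44.5, 25.5, 35.2, 20.9, 28.7, 41.9 and 56.1. Its mean of 36.1 was 21.7 when the same number of peaks was taken from each library. The other, chr11:45008051-45008528, lay across the 3′ end of the gene and had percentiles of 51.4, 49.2, 60.5, 25.7, 48.9, 58.2 and 68.5. Both were weakest in HPC7-5 and strongest in HPC7-8, and neither had a mean percentile above 51.8. Farther upstream, an intergenic OCR at chr11:44606904-44607260 had a peak in 5 libraries, with percentiles between 20.0 and 49.3. In Pax5 and in Ebf1, the OCR with the highest mean percentile carried a match to the core consensus of CTCF, the insulator-binding protein. The 200 bp around the summits of these 2 OCRs are shown with that match, and are the sequences in mm10 on the plus strand, in lower case with the matched letters in capitals.

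Pax5 intron 8, chr4:44564685-44564884: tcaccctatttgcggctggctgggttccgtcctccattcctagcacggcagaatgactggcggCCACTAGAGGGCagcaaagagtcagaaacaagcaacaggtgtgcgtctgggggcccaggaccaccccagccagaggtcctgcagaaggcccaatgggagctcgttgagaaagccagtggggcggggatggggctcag
Ebf1 3′ end, chr11:45008167-45008366: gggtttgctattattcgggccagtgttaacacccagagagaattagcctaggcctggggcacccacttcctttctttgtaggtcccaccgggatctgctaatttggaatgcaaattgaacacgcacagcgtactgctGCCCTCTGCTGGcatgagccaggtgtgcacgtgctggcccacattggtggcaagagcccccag

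Neither sequence held any of the letters GATAA (GATA factors), TGTGGT (RUNX), CGGAAG (ETS), GAGGAA (PU.1), CAGCTG or CAGATG (E-boxes), searched on both strands and also written in capitals wherever they occur in the sequences below. The letters CTTTGA, CCCNNGGG and TGANTCA, counted further below, were left in lower case. The CTCF consensus occurred in 6.05% of all 66979 OCRs found in all 7 libraries and in 5 of the 35 such OCRs in the 9 windows, 14.3%. A match is a description of the letters and was not tested for binding.

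Cd79a (chr7:24897381-24902197, plus strand), the signalling chain of the B-cell receptor, had no OCR within 1 kb of its start, although its window was among the most covered. Peaks covered from 15.7% of the window in HPC7-2 to 28.9% in HPC7-1, with an SD of 4.68 points (n = 7), and the mean stood at the 93.6 percentile of all protein-coding genes. Of the 12 OCRs there, 8 lay at promoters of neighbours, 3 in bodies of other genes and 1 between genes. The OCR at the promoter of Rps19, a gene of the small ribosomal subunit, had a mean percentile of 99.2 ± 0.260, and that of Arhgef1 had 98.0 ± 0.615. Another OCR near a start of Rps19, chr7:24889211-24892403, had 87.2 ± 2.44. The Arhgef1 OCR, chr7:24901013-24905680, began inside the 3′ part of Cd79a, 3632 bp from the Cd79a start, and was the nearest OCR to it. Coverage of this window is therefore no measure of Cd79a.

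Rag1 (chr2:101638282-101649501, minus strand) and Rag2 (chr2:101624718-101632529, plus strand) point towards each other, and their windows shared 13 OCRs, 6 of them in all 7 libraries. The Rag2 promoter OCR, chr2:101623880-101625565, had percentiles of 71.2, 51.3, 66.6, 47.2, 53.8, 66.3 and 61.9, and fold enrichments of 8.91 ± 1.85. The Rag1 promoter OCR, chr2:101649370-101649796, had percentiles of 52.0, 40.2, 54.8, 41.9, 39.2, 56.9 and 52.8, and fold enrichments of 6.26 ± 1.06. In both, HPC7-2, HPC7-5 and HPC7-6 were the 3 lowest libraries. These have the 3 shortest peak lists (93131, 98270 and 84593 peaks), and the part of list length in this order was not tested. Among the promoters open in all 7 libraries over the genome, 5.74% had a mean percentile at or below that of Rag2, and 3.12% at or below that of Rag1. The Rag1 promoter OCR also lay within 1 kb of a start of B230118H07Rik, a coding gene that overlaps both, so the signal there cannot be assigned to Rag1 alone.

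The strongest OCR of the pair was not at either recombinase promoter. It lay at chr2:101627856-101629369, with its summit in intron 2 of Rag2, 4249 bp downstream of the Rag2 start, in an exon of B230118H07Rik and at a start of that gene. Its percentiles were 95.8, 94.5, 95.9, 93.9, 94.5, 95.1 and 95.9, and its fold enrichment was 94.9 ± 14.9. All 7 libraries placed it above the Rag2 promoter and above the Rag1 promoter. The difference of promoter minus this OCR was -35.3 ± 8.32 for Rag2 and -46.8 ± 6.88 for Rag1. For Gata3 the strongest promoter peak exceeded the strongest OCR away from every Gata3 start, chr2:9892415-9893935, by 15.5 ± 2.36 points, in 7 of 7 libraries. These 3 differences are descriptions, since the OCR was taken as the strongest by its mean over the same libraries.

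A further OCR at chr2:101621471-101622181, 2918 bp upstream of the Rag2 start and also at a start of B230118H07Rik, had percentiles of 78.5, 70.3, 74.5, 70.0, 70.3, 78.6 and 79.7. At chr2:101608206-101608872, 16178 bp upstream of Rag2 and inside the body of another gene, percentiles ran from 63.6 in HPC7-6 to 77.9 in HPC7-8. The second strongest OCR of the Rag1 window, chr2:101678059-101679703 at the promoter of the neighbour Traf6, had 88.8 ± 1.76 and lay outside the Rag2 window. Upstream of Rag1, intergenic OCRs at chr2:101652261-101653281 and chr2:101665220-101665701 had means of 57.3 ± 5.67 and 60.3 ± 4.92. The sequence around the summit of the OCR upstream of Rag2 is shown because it lies between the recombinase promoter and the distal site, and it held 1 match to CGGAAG and 2 to GAGGAA.

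Rag2 upstream, chr2:101621701-101621900: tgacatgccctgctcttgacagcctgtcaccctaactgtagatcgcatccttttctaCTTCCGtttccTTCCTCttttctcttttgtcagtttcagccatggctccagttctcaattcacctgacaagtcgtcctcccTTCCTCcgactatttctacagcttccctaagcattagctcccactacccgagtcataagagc

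Of the T-lineage regulators, Gata3 was the open one. Gata3 (chr2:9857078-9890034, minus strand) had 14 OCRs in its window, 7 of them in all 7 libraries, and 3 of these lay at annotated Gata3 starts. The OCR at the principal start, chr2:9877970-9880370, which also lies within 1 kb of starts of 4930412O13Rik and the gene model Gm13256, had percentiles of 95.7, 95.4, 96.2, 95.3, 94.8, 95.4 and 96.9. That at the distal start, chr2:9887553-9890934, which also holds a start of 9230102O04Rik, had 97.5, 96.6, 97.6, 95.5, 94.4, 96.0 and 96.3. Another, chr2:9870747-9873395 in intron 3 and near an internal start, was lower in every library, between 83.6 and 90.2. The fold enrichment of the strongest promoter peak was 114 ± 24.6 and ran from 72.7 in HPC7-6 to 143 in HPC7-4. Among all promoters open in all 7 libraries, 70.2% had a mean percentile at or below that of Gata3.

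Upstream of the distal start, 3 intergenic OCRs were in all 7 libraries. The nearest, chr2:9892415-9893935, had percentiles of 85.0, 82.5, 80.5, 75.8, 79.7, 81.7 and 81.3, and its 200 bp summit sequence held 5 copies of GATAA, the letters bound by GATA factors. GATAA occurred at least once in 26.8% of the 66979 OCRs and in 11 of the 35 OCRs of the 9 windows, 31.4%. The next, chr2:9894298-9894805, had a mean of 55.4 ± 8.74. The farthest, chr2:9903828-9904822, with its summit 25764 bp upstream of the principal start and its near edge 13794 bp from the distal one, varied most between libraries of the named OCRs. Besides the letters in capitals, its sequence below holds tgactca, a match to TGANTCA (AP-1), in lower case.

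Gata3 nearest upstream, chr2:9892646-9892845: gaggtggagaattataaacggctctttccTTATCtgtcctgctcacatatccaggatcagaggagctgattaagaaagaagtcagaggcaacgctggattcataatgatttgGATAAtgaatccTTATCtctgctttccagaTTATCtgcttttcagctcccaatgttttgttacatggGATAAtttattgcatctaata
Gata3 farthest upstream, chr2:9904265-9904464: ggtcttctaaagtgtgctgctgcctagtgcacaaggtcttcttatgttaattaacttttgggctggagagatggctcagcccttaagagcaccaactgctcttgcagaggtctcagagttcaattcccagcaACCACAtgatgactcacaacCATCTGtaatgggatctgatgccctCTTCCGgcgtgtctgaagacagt

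This farthest OCR had percentiles of 81.5, 71.7 and 74.2 in HPC7-1, HPC7-2 and HPC7-4, and of 43.1, 28.7, 35.8 and 44.8 in HPC7-5, HPC7-6, HPC7-7 and HPC7-8. The corresponding fold enrichments were 20.0, 14.7 and 15.5 against 6.44, 4.07, 4.51 and 5.83. The 3 libraries whose peak names begin with VD thus lay above the other 4 without overlap, with a gap of 26.9 points between the lowest of the first and the highest of the second. Over the genome, 1.64% of the OCRs in all 7 libraries had every VD-named library above every EtOH-named one, 0.0597% by at least 20 points, and 0.0254% had the opposite order. In the 9 windows, 2 of 35 OCRs had the first order and 0 the opposite, the other being the distal Gata3 promoter, where the gap was 0.344 points. The site was singled out after its values were seen, and no test was made. In the 200 bp shown, 74.0% of the letters are marked as repeat in the RefSeq genome sequence, a share above 50% in 7.50% of all OCRs present in all 7 libraries and in 3 of the 35 here. The part of repeats, and of whatever the prefixes stand for, in this difference was not tested.

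**Figure D2:**
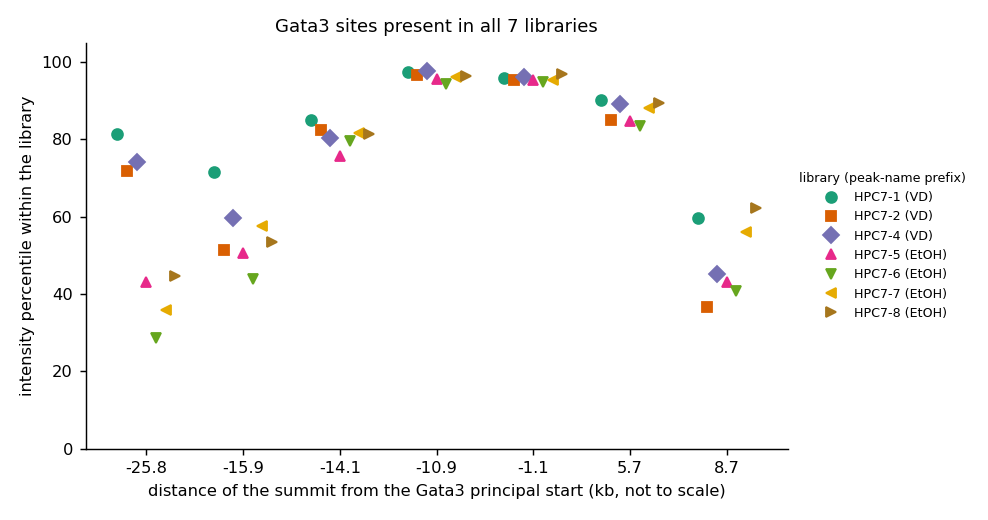
Intensity percentile (y axis) of the 7 Gata3 OCRs present in all 7 libraries, ordered by distance of the summit from the principal start (x axis, kb), with points for libraries and the peak-name prefix in the key. At the farthest upstream OCR the 3 VD-named libraries lie between 71.7 and 81.5 and the other 4 between 28.7 and 44.8, and at the principal and the distal start all libraries lie above 94.

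Tcf7 (chr11:52252371-52283014, minus strand), which encodes the thymocyte factor TCF1, had a weak promoter and stronger distal OCRs. At its start, chr11:52283102-52283495 had a peak in HPC7-1 (percentile 25.5), HPC7-7 (10.4) and HPC7-8 (10.2), with fold enrichments of 2.99, 3.06 and 3.20, and no peak in the other 4 libraries. HPC7-1, HPC7-7 and HPC7-8 have the 3 longest peak lists. When the same number of peaks was taken from each library the Tcf7 promoter had a peak in 0 libraries, and with a -log10 q of at least 5 it had one in 1. By contrast, an intergenic OCR at chr11:52305003-52305906, 22454 bp upstream, had percentiles of 88.1, 85.6, 86.7, 86.3, 84.0, 87.0 and 90.2. Another at chr11:52297306-52297836, 14561 bp upstream, had 75.1, 70.3, 70.2, 74.1, 68.3, 74.1 and 76.7. Both were in all 7 libraries and each varied by less than 9 points between them.

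Tcf7 distal upstream, chr11:52305369-52305568: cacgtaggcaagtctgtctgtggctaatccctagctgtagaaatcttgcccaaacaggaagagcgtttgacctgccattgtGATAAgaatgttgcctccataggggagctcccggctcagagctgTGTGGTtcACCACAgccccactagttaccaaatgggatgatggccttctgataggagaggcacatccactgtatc
Tcf7 proximal upstream, chr11:52297476-52297675: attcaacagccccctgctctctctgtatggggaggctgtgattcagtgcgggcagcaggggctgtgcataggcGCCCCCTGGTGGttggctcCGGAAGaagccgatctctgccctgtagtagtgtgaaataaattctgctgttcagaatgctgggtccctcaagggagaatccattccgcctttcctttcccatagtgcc

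These upstream sequences are the strongest OCRs of the Tcf7 window outside the promoter of the neighbour Skp1a, which stood at 89.9 ± 1.92. The distal one held 2 copies of TGTGGT and 1 of GATAA, the proximal one the CTCF consensus and 1 CGGAAG. The proximal one also holds tgattca, a match to TGANTCA (AP-1), in lower case. Of all OCRs in all 7 libraries, 26.9% held TGTGGT and 8.06% held CGGAAG. In the 9 windows the shares were 28.6% for TGTGGT and 20.0% for CGGAAG. Within the gene, OCRs in intron 2 (chr11:52261662-52262477, 67.3 ± 8.71) and intron 9 (chr11:52253894-52254419, 61.2 ± 6.31) were also in all 7 libraries.

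Bcl11b (chr12:107910403-108003602, minus strand), a zinc finger factor of T-cell commitment, had 1 OCR in its window of 153.2 kb. It lay in intron 1 at chr12:107998736-107999120, 4630 bp downstream of the start, and was in all 7 libraries with percentiles of 36.0, 41.7, 47.6, 18.0, 9.52, 44.4 and 51.3. HPC7-5 and HPC7-6, which have short peak lists (98270 and 84593 peaks), were lowest, and fold enrichments ran from 3.13 to 6.85. The summit sequence, the single open sequence of this window, held 1 GATAA.

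Bcl11b intron 1, chr12:107998873-107999072: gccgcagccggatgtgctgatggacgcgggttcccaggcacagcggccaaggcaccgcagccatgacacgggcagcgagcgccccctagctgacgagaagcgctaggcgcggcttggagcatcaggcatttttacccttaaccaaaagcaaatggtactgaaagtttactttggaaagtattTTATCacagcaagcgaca

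Cd3e (chr9:44998740-45009627, minus strand), the CD3 epsilon chain, had no promoter peak, and 8 OCRs stood in its window, 3 of them in all 7 libraries. The strongest lay at Cd3d, the gene of the CD3 delta chain downstream of Cd3e, at chr9:44985693-44987381, with percentiles of 95.9, 93.8, 93.0, 95.2, 92.8, 92.8 and 95.0. Between Cd3d and the 3′ end of Cd3e, OCRs at chr9:44998049-44998566 and chr9:44993215-44993697 had means of 63.2 ± 7.50 and 59.3 ± 7.27, the first within 1 kb of a start of the gene model Gm48719. Cd3g, the gene of the gamma chain, had no promoter peak in any library. The Cd3d OCR had its summit in an exon of Cd3d and counted as a promoter through an internal annotated start. At the principal start Cd3d had a peak in 0 libraries, as did Cd3e and Cd3g.

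Cd3e downstream, chr9:44998193-44998392: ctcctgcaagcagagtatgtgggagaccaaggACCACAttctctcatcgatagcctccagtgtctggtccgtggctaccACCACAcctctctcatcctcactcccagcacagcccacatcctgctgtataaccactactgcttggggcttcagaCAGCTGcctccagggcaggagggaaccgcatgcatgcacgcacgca

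This sequence, from just past the 3′ end of Cd3e, held 2 copies of TGTGGT and 1 of CAGCTG. The latter occurred in 14.7% of all OCRs in all 7 libraries and in 11.4% of the 35. GAGGAA occurred in 28.9% and 20.0%, CAGATG in 17.8% and 5.71%, CTTTGA (TCF/LEF) in 11.4% and 5.71%, CCCNNGGG (EBF) in 7.06% and 5.71%, and TGANTCA (AP-1) in 11.1% and 17.1%. These shares depended on the width searched. In 400 bp around the summits CAGATG occurred in 20.0% of the 35 OCRs and 29.7% of all, CTTTGA in 17.1% and 22.5%, GAGGAA in 37.1% and 43.1%, CCCNNGGG in 11.4% and 13.2%, and CAGCTG in 25.7% and 24.5%, the last now above the share over all. At 400 bp TGANTCA occurred in 22.9% of the 35 and 16.5% of all, and CGGAAG in 22.9% and 12.9%. The CTCF consensus occurred in 14.3% and 6.52%, GATAA in 45.7% and 42.2%, and TGTGGT in 40.0% and 38.2%. With 35 OCRs, 1 OCR changes a share by nearly 3 points, and no difference between these shares was tested.

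**Figure D3:**
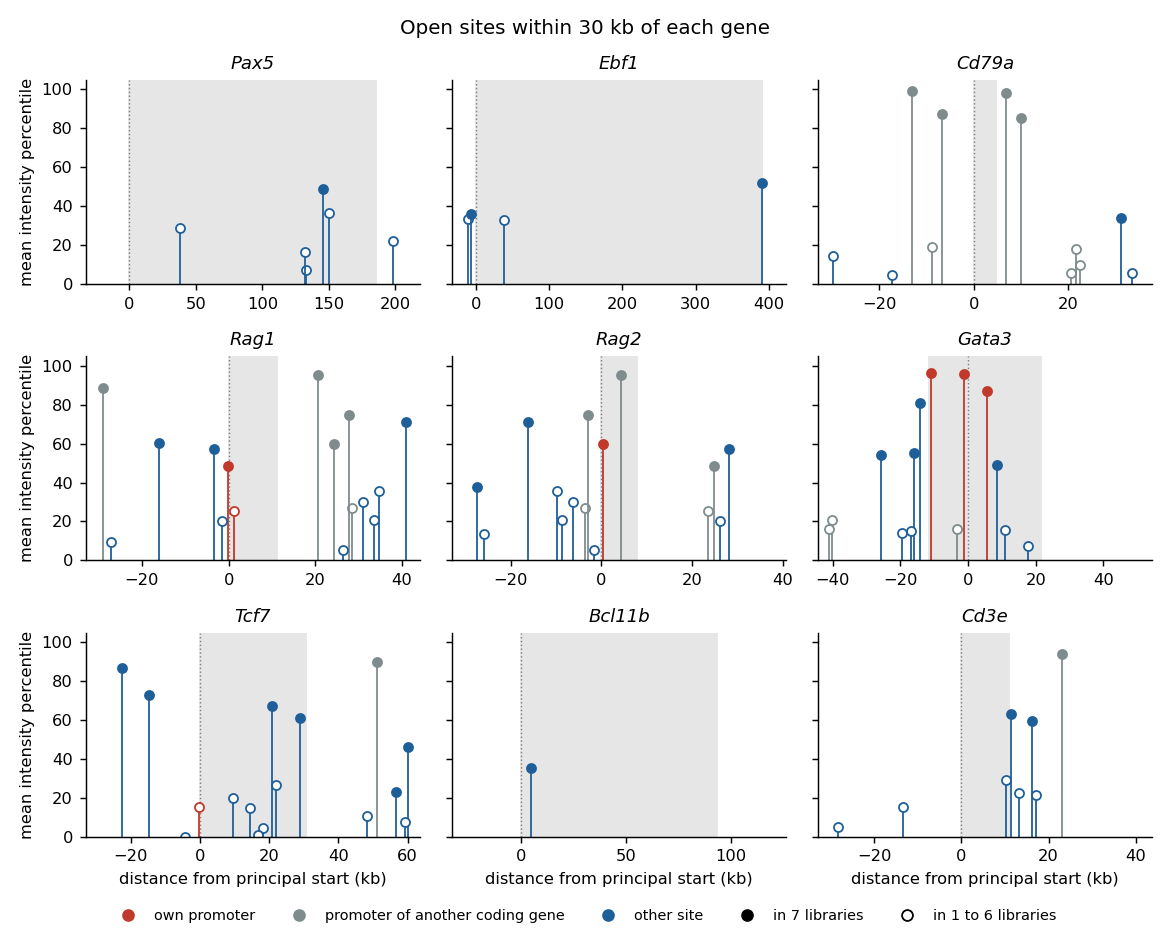
Each OCR in the 9 windows at the distance of its summit from the principal start (x axis, kb, positive downstream, own scale per gene) and at its mean intensity percentile (y axis), with the gene body shaded. Filled points are OCRs in all 7 libraries and open points those in 1 to 6. Pax5, Ebf1 and Bcl11b have long bodies with few points, and the tallest points of Cd79a and Cd3e lie at other genes.

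Of the 79 OCRs, 35 were in all 7 libraries (44.3%), 30 were in 2 to 6 and 14 in a single library, 7 of those in HPC7-1. Over the genome, 46.2% of the merged OCRs were in all 7. Density in the windows fell into separate levels. Pax5, Ebf1 and Bcl11b had 0.407, 0.444 and 0.653 OCRs in all 7 libraries per 100 kb, Cd3e had 4.23, Gata3, Cd79a and Tcf7 had 7.53, 7.71 and 7.72, and Rag2 and Rag1 had 10.3 and 11.2. The median over protein-coding genes was 5.00. Pax5, Ebf1 and Bcl11b also had the longest windows, at 245.731, 450.775 and 153.2 kb, and the next longest was Gata3 at 92.957 kb. With a fixed flank, a longer window holds a larger share of gene body, and the part of window length in density was not tested. Among all protein-coding genes, the density stood at the 20.3 percentile for Pax5, 20.4 for Ebf1 and 21.1 for Bcl11b. Their covered share stood at the 18.1, 16.7 and 16.4 percentile, so windows this sparse are not rare. By covered share the lowest were again Bcl11b at 0.199 ± 0.0475%, Ebf1 at 0.214 ± 0.0387% and Pax5 at 0.303 ± 0.190%. Gata3 stood at 11.8 ± 1.60% and Rag1 at 11.3 ± 2.36%, against a median of 5.12%. For 3 others it was 10.1 ± 2.37% in Rag2, 5.86 ± 1.98% in Tcf7 and 3.88 ± 0.909% in Cd3e. Cd79a, in the middle by density, had the highest mean covered share, between 15.7% and 28.9% over the libraries.

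**Figure D4:**
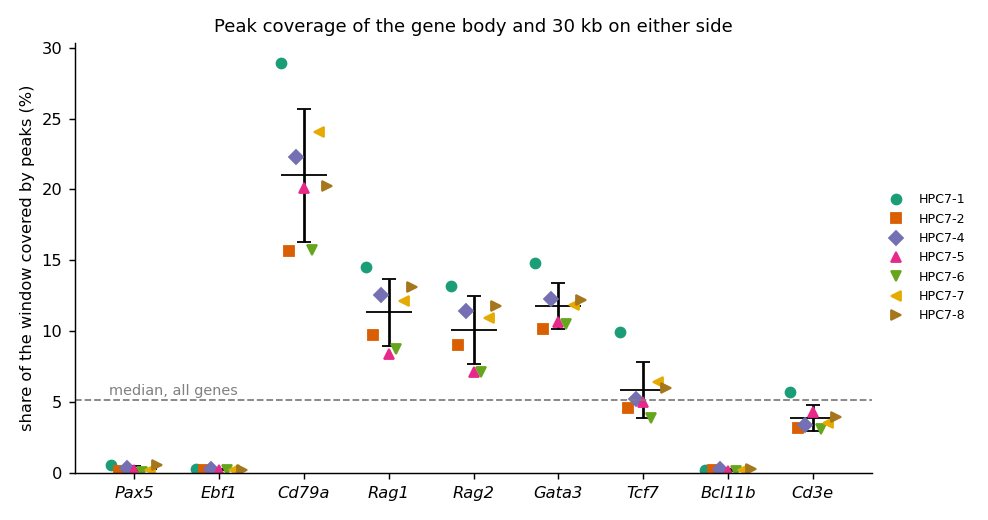
Share of each gene body plus 30 kb on either side that peaks covered (y axis, percent) in each of the 7 libraries (points), with the mean and SD as bars and the median over protein-coding genes as a dashed line. Bcl11b, Ebf1 and Pax5 lie below 0.6% in every library and Cd79a between 15.7% and 28.9%.

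Other lymphoid genes were read by the same promoter rule. Of 24 B-lineage genes, 11 had a promoter peak in all 7 libraries (45.8%), 4 in some and 9 in none. The highest were Vpreb1 and Igll1, the surrogate light chain genes of the pre-B receptor, at 97.2 ± 0.816 and 92.6 ± 1.92, and the kinase gene Syk at 90.1 ± 2.43. The Vpreb1 peak lay by another annotated start, and its principal start had a peak in 0 libraries. Bank1 and Blk were among those with none. Of 29 T-lineage genes, 13 were open in all 7 libraries (44.8%), 2 in some and 14 in none. Runx3, Lat and Zbtb7b led at 99.1 ± 0.351, 97.6 ± 0.617 and 97.1 ± 0.609, and Cd2, Cd28 and Cd3g had no peak. Both shares lay below the 55.9% of all protein-coding genes, but few of these promoters were CpG-rich. Among promoters that were not CpG-rich, 8 of 21 in the B list (38.1%) and 11 of 26 in the T list (42.3%) were open in all 7 libraries, against 32.1% of such promoters over all genes. The class was set at the principal start, whereas a peak could lie at any start. With the peak also read at the principal start, 7 of 21 (33.3%) were open in the B list and 7 of 26 (26.9%) in the T list, against 27.7% over all genes, so the T list then lay below its background. In the fibroblast list, none of whose promoters were CpG-rich, the count was 2 of 5 (40.0%) by any start and 1 of 5 (20.0%) by the principal one. No difference between these shares was tested.

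Of 15 innate lymphoid genes, 7 were open in all 7 libraries (46.7%), 2 in some and 6 in none. Id2, Zbtb16 and Nfil3 led at 96.3 ± 1.06, 95.0 ± 1.36 and 90.7 ± 1.60, and Gzmb, Il2rb and Klrb1c had no peak. Of 15 genes that act in early lymphoid progenitors, 12 were open in all 7 libraries (80.0%) and 3 in none. Tcf3, Bcl11a and Myb led at 97.1 ± 0.665, 94.3 ± 1.37 and 93.4 ± 1.52, while Dntt, the terminal transferase gene, Ikzf3 and Ly6d had no peak. Of these 15 promoters 9 were CpG-rich, against 3 of 24 in the B and 3 of 29 in the T list, and among those that were not CpG-rich 4 of 6 (66.7%) in the early lymphoid and 4 of 10 (40.0%) in the innate list were open in all 7, against 32.1% over all genes. By the principal start these were 2 of 6 (33.3%) and 4 of 10 (40.0%), against 27.7%. None of these differences was tested.

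**Figure D5:**
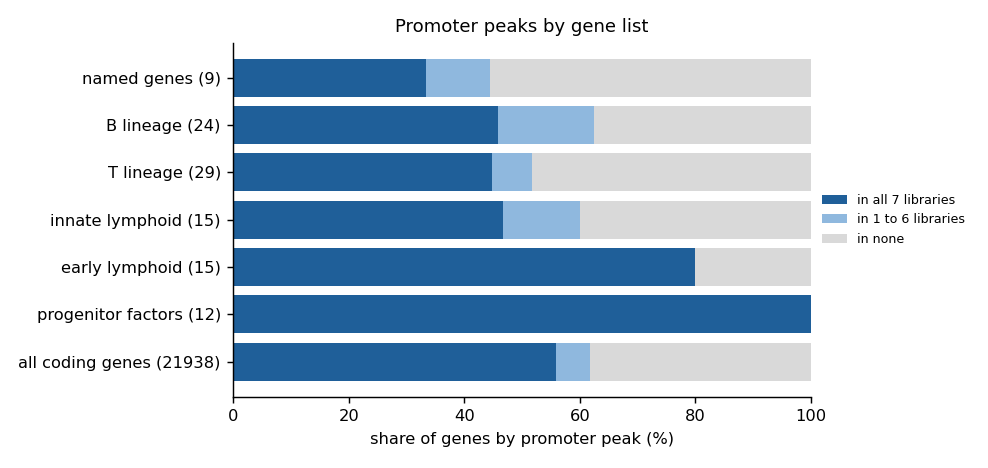
Share of genes (x axis, percent) with a promoter peak in all 7 libraries, in 1 to 6, or in none, for the 9 genes described here (named genes), 5 other gene lists and all protein-coding genes, with the number of genes in brackets. The share open in all 7 libraries is 80.0% in the early lymphoid list, between 44.8% and 46.7% in the B, T and innate lists, and 55.9% over all genes.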

How the data were processed

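Bulk ATAC-seq was analysed in 7 libraries of HPC7, which form 1 group. Adapter trimming by the authors used Cutadapt, alignment to mm10 used BWA-mem, and peak calling used MACS2 on single libraries (options not given in the sources used here). The deposited lists give a fold enrichment (a ratio to the background of the library), a -log10 p and a -log10 q, and a score derived from the -log10 q. Fold enrichments were not normalised by the authors between libraries, and were turned here into percentiles within each library. The lists hold no read totals, the part of depth in list length was not tested, and precision is given as the SD over libraries.

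Peaks sharing at least 1 bp were merged. Genes and starts came from GENCODE M21, sequences from the RefSeq genome of the same build (1-based coordinates). Motifs were searched in 200 bp around each summit, the median over libraries. Paired differences within a library are given as descriptions, and the permutation test planned for them is not reported, since the values compared had been ranked on the same libraries. The genes, lists and rules were chosen with earlier results of these data known. Named were all 9 genes, per gene the 3 other OCRs with the highest mean percentile among those in all 7 libraries (where fewer than 3 were, those in the most libraries), the progenitor factors, given as a count with 2 examples, and per list the 3 strongest promoters and the first 3 without a peak by alphabet, of which 1 is not reported here. The mature B-cell and T-cell markers were named as well, with 1 of the B-cell markers not reported here. Other named OCRs and Cd3d were chosen after their values were seen. Alternative settings included peaks with a -log10 q of 5 or more, equal list lengths, principal starts, other promoter widths, flanks, windows, overlap and scales, and each library left out. On simulated data the interval functions were tested with bedtools 2.31.1 as the reference. Python 3.11.15, numpy 2.4.6, pandas 2.3.3, pysam 0.24.0 and matplotlib 3.10.9 were used.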

Additional observations from a re-analysis of the deposited data

Results flagged for a closer look

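Among 32 sets of 7 library values that were checked (promoter and OCR percentiles and covered shares of the 9 genes), 3 held a library far from the other 6 by Dixon's test, where chance gives about 1 in 20. All 3 concerned HPC7-1, the library with the longest peak list. At the Rps19 promoter OCR in the Cd79a window its percentile was 99.7, against 98.9 to 99.2 in the others. At the Skp1a promoter OCR in the Tcf7 window it was 93.9, against 88.2 to 90.4. Peaks covered 9.93% of the Tcf7 window in HPC7-1, against 3.88% to 6.43% in the others. The part of list length in these values was not tested.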

How the results depend on the processing

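Of 603 values under the alternatives run, 548 stayed within the spread or the count limits and 55 moved. The differences between promoters kept their direction under every alternative run. Most that moved were percentiles under another reference set of peaks. The labels give a single group, so no replicate block between groups could be fitted. The count of OCRs in all 7 libraries was 22 with a flank of 10 kb and 85 with 100 kb, and the median covered share over the 9 genes fell from 5.86% to 3.74% with a flank of 10 kb. The median percentile of these OCRs was 63.2 among all peaks and 32.4 among peaks at promoters of protein-coding genes. With equal list lengths, the mean percentile of the Pax5 intron 8 OCR was 37.4, of the Rag2 promoter 50.7 and of the Rag1 promoter 36.0, against 48.9, 59.8 and 48.3. With promoters of 3 kb, the difference of Gata3 and Rag2 was 21.9 points and that of Rag2 and Rag1 22.9. With each library left out, the genes open in all libraries stayed at 3, OCRs in all libraries ran from 35 to 36 and the difference of Gata3 and Rag2 from 34.7 to 38.4 points. Open counts of the lists did not move with a library left out. With principal starts and with promoters of 3 kb, the B list had 10 and 14 open genes, the T list 9 and 17 and the early lymphoid list 10 and 13, against 11, 13 and 12. The fibroblast list had 1 and 3, and the hepatocyte list 0 and 1, against 2 and 0. The progenitor list had 11 and 12, against 12, since Erg had a peak in 0 libraries at its principal start. With promoters of 3 kb, Cd3e had a peak in 2 libraries, HPC7-1 and HPC7-8. That peak lay by an internal annotated start, with its summit in exon 8, 10278 bp from the principal start. Restricting the lists to VD-named or EtOH-named libraries, and reading the Gata3 OCR as fold enrichment, were chosen after seeing the data. The lists give no reads outside peaks, so a promoter without a peak was below detection at these depths, not shown to be closed.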
